A study of Rattus norvegicus with 12 samples.

Results

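Interferon-response genes were followed in rat primary neuroglial cultures. The set held 9 genes, Ifitm3, Gbp2, Parp9, Stat2, Irf1, Irf7, Irf9, Ifit3 and B2m, out of 28111 gene names in the files. They were taken by name, and each had 1 row. The genes were selected on values measured in these same libraries, and which contrast chose each gene is not stated, so the values of all 9 genes are given here as a description, with no p-value, and counts over them support nothing. The cultures came from the cerebral cortex of rat pups, of postnatal day 0 by the labels and somewhat older, of the Wistar strain, by the study's methods. They held neurons and glia together at 10 days in vitro. The 4 groups had 3 libraries each: the intact culture (IC), which received nothing, and cultures given extracellular vesicles (EV) at 10 µg/ml, proteins of 3–100 kDa at 15 µg/ml or the total secretome at 45 µg/ml. RNA was taken 4 h after the addition. The secreted products came from glial progenitor cells that had been differentiated from induced pluripotent stem cells of 1 human donor, so every treatment was a human product on rat cells. The labels do not say whether the 3 libraries of a group came from separate cultures or litters, and the doses differ between the treatments, so the treatments are set side by side at unequal doses.

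Interferons are secreted proteins that bind receptors on the cell surface and activate the kinases JAK1, JAK2 and TYK2. Type I interferons lead to a complex called ISGF3, which holds STAT2 and IRF9 and binds the interferon-stimulated response element (ISRE) in front of antiviral genes. Genes that interferon gamma induces often carry another element, the gamma-activated site (GAS). STAT3, which IL-6 family cytokines activate, also binds sites of the GAS type. In the brain, astrocytes and microglia are known for strong responses of this kind, and neurons respond too.

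The 9 genes have different places in this pathway. STAT2 and IRF9 are subunits of ISGF3, IRF1 is a transcription factor that interferon gamma induces early, and IRF7 amplifies type I interferon production. IFITM3 blocks the entry of viruses at membranes, GBP2 is a guanylate-binding GTPase directed at intracellular pathogens, PARP9 works together with the ubiquitin ligase DTX3L, and IFIT3 belongs to a family that restricts viral RNA. B2M is the light chain of MHC class I molecules.

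The promoter windows of all 9 genes were found in the RefSeq table of the build GRCr8, with 250 bases before and 50 bases after the start. The letters GAAA, any 2 bases and GAAA again, or TTTC, any 2 bases and TTTC when read on the other strand, were taken as ISRE and the letters TTCNNNGAA, which read the same on both strands, as GAS. Of 27457 promoters of this length, 3.77% held the ISRE letters and 8.68% the GAS letters. Among the 9 genes, 5 held ISRE letters (Ifitm3, Gbp2, Irf7, Ifit3 and B2m), 3 held GAS letters (Ifitm3, Irf1 and Irf9) and 2 (Parp9 and Stat2) held neither. The windows of the 3 genes whose treated libraries all stood above IC, and of Ifit3, which was listed at or near 0, are printed below. A listed 0 can be a failed estimate, so the level of Ifit3 is uncertain. Capitals mark the matched letters. The windows lie at chr1:205541709-205542008 on the minus strand for Ifitm3, at chr2:234005477-234005776 on the plus strand for Gbp2, at chr11:78318962-78319261 on the minus strand for Parp9 and at chr1:241527076-241527375 on the plus strand for Ifit3.
Ifitm3: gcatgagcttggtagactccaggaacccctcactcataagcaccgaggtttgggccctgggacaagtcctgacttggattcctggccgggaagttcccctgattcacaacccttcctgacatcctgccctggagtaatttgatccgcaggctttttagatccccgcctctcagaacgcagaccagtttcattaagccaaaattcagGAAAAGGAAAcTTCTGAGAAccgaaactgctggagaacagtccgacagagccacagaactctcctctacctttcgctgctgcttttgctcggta
Gbp2: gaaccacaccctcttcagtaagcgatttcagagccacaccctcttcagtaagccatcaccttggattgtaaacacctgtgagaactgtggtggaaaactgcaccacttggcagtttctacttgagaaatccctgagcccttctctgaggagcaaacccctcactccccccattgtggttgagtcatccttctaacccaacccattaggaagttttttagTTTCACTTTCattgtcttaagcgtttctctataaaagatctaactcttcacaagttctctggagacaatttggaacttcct
Parp9: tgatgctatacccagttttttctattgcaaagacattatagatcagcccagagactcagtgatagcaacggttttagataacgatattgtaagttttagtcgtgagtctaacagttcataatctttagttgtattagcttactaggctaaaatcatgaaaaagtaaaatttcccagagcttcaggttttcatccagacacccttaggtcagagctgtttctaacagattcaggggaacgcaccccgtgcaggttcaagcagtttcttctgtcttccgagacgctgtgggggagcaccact
Ifit3: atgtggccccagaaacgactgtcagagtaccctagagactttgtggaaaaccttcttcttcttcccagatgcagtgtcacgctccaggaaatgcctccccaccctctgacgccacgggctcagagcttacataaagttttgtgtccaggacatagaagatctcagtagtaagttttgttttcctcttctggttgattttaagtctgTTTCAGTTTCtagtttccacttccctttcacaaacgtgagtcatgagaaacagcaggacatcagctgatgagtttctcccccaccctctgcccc

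In Ifitm3 the ISRE letters GAAAAGGAAA began 44 bases before the start and the GAS letters TTCTGAGAA followed after a single base, 33 bases before it. In Gbp2 the letters TTTCACTTTC began 31 bases before the start, and in Ifit3 the letters TTTCAGTTTC began 44 bases before it. The other matches were TTTCATTTTC in Irf7 and GAAACTGAAA in B2m for ISRE, and TTCCCCGAA in Irf1 and TTCTAGGAA in Irf9 for GAS. These matches describe letters only, not binding.

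The values of all 12 libraries were taken as TPM, a share of all transcripts corrected for their length and scaled to 1000000 per library. Levels of different genes can thus be set beside each other, but TPM keeps no depth, and the depth of each library is unknown. Between 14890 and 15392 rows per library were above 0. Rps6, a ribosomal protein gene that every cell uses, has a value of 0 in every one of the 12 libraries, so that a 0 in the files can be a failed estimate. The labelled cell type was borne out by its markers: the 9 neuronal markers summed to 3132 to 4031 TPM and the 8 astrocyte markers to 833 to 1572 TPM over the libraries. The 14 markers of microglia and macrophages, the main immune cells of the brain, summed to 0.425 to 3.41 TPM in IC, 0.718 to 2.18 in EV, 1.07 to 2.38 with the 3–100 kDa proteins and 2.02 to 3.12 with the total secretome. Of these 14, 12 were under 1 TPM in every library, and Ptprc and Trem2 were listed at 0 in all 12. The 8 markers of T and natural killer cells summed to at most 0.258 TPM. The 8 endothelial markers were each under 1 TPM in every library. They summed to 0.437 to 0.895 TPM in IC and 0.0751 to 0.970 with EV. With the proteins they summed to 1.02 to 1.66 TPM, above every IC library, and with the secretome to 0.775 to 1.11. The 8 of fibroblasts and mural cells summed to 2.05 to 4.28 TPM, with overlapping groups. The part of these cells in the levels of the 9 genes was not tested.

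Ifitm3 and Gbp2 had higher levels in every treated library than in any IC library, under all 3 treatments. Parp9 showed the same order with smaller differences. Of the genes of ISGF3, Irf9 was higher in every EV library and Stat2 lower in every library of the protein and secretome groups. Irf7 and Ifit3 were listed at or near 0 throughout.

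**Figure D1:**
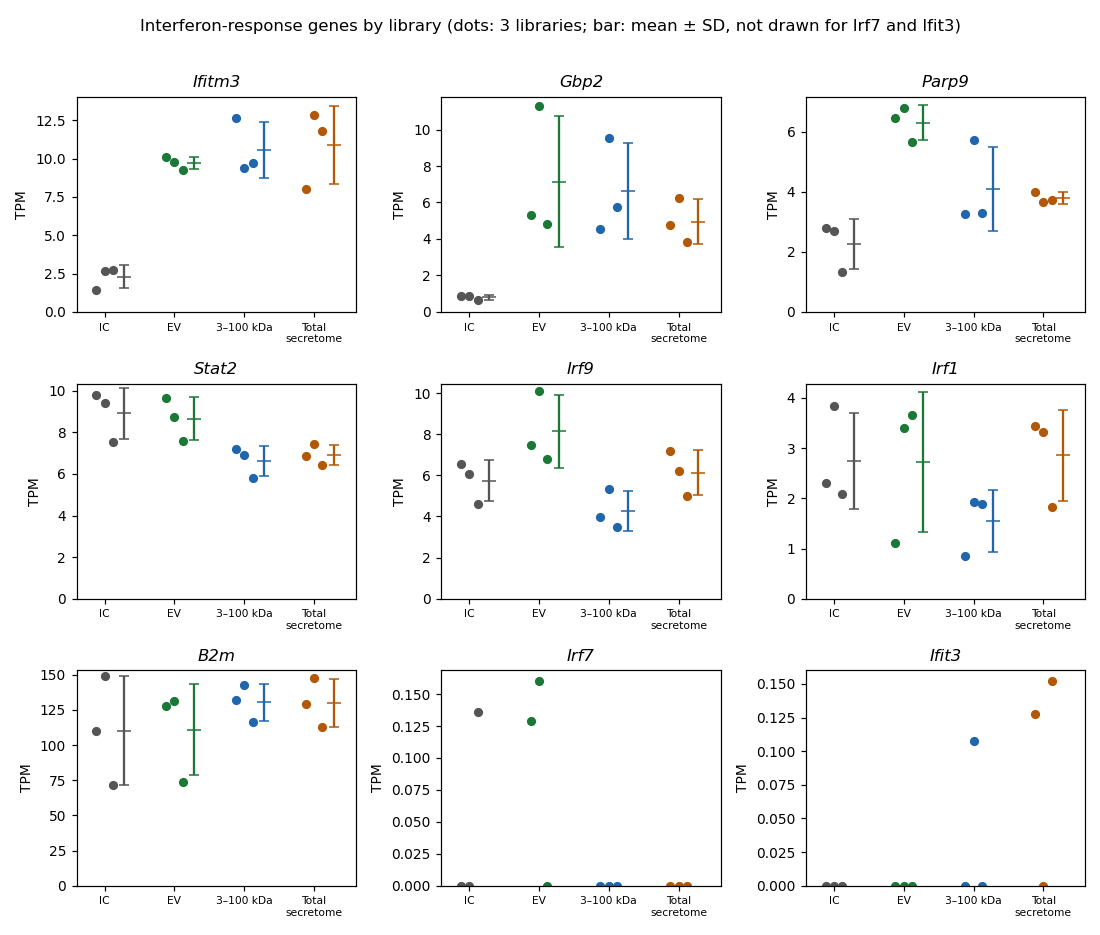
Level of each of the 9 genes in TPM (vertical axis, from 0) in the 12 libraries, with 1 dot per library by group and, except for Irf7 and Ifit3, the mean ± SD of the 3 libraries of a group. The treated libraries of Ifitm3 lie between 8.01 and 12.8 TPM against 1.42 to 2.73 TPM in IC, and those of Gbp2 between 3.81 and 11.3 TPM against 0.636 to 0.891 TPM.

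The level of Ifitm3 in the IC libraries was 1.42, 2.69 and 2.73 TPM. It was 10.1, 9.76 and 9.28 TPM with EV, 12.7, 9.36 and 9.71 TPM with the 3–100 kDa proteins, and 8.01, 12.8 and 11.8 TPM with the total secretome. The lowest treated library was thus far above the highest IC library, while the treatments overlapped each other. The mean was 2.28 ± 0.746 TPM (SD, n = 3) in IC and 9.71 ± 0.415 TPM with EV, a ratio of 4.26. With the proteins it was 10.6 ± 1.82 TPM, a ratio to IC of 4.64, and with the secretome 10.9 ± 2.55 TPM, a ratio of 4.78. On the log2(TPM + 1) scale, where changes of genes at low levels come out too small, the differences from IC were 1.72 (SE 0.25) for EV, 1.86 (SE 0.26) for the proteins and 1.87 (SE 0.29) for the secretome. Ifitm3 has a near copy, Ifitm2, with which the authors' quantification could have shared reads. Ifitm2 was at 7.61, 4.54 and 1.47 TPM in the IC libraries and at 2.33 to 11.9 TPM in the treated libraries, with no separation of any group from IC. Since the libraries are of whole cultures, more cells of a type and more RNA per cell cannot be told apart for any gene.

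Gbp2 was under 1 TPM in every IC library, at 0.878, 0.891 and 0.636 TPM. It was at 5.33, 11.3 and 4.82 TPM with EV, at 4.52, 9.56 and 5.77 TPM with the proteins and at 4.76, 6.26 and 3.81 TPM with the secretome. The library numbered 2 was the highest of its group under each treatment. The mean was 0.802 ± 0.144 TPM (SD, n = 3) in IC against 7.14 ± 3.59, 6.62 ± 2.63 and 4.94 ± 1.23 TPM with EV, proteins and secretome, which are ratios of 8.91, 8.25 and 6.17. The log2(TPM + 1) differences were 2.09 (SE 0.30), 2.05 (SE 0.27) and 1.72 (SE 0.22) in the same order. Gbp2 passed the filter of at least 1 TPM in at least 3 libraries only through its treated libraries, so a difference was bound to appear once it had passed, and without any single treated library it failed the filter. The GBP genes are a family of close copies, so its level is uncertain to the extent that reads were shared.

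The markers of astrocytes also stood higher in part of the treated libraries. They summed to 833 to 1133 TPM in IC, 1131 to 1517 with EV, 958 to 1425 with the proteins and 1129 to 1572 with the secretome. Without Gfap, the intermediate filament gene of astrocytes, the other 7 summed to 705 to 867 TPM in IC and to 646 to 978 TPM in the treated libraries. The part of either in the levels of Ifitm3 and Gbp2 was not tested. The 10 markers of the oligodendrocyte lineage summed to 227 to 306 TPM in IC, 236 to 277 with EV, 161 to 246 with the proteins and 284 to 335 with the secretome, so that the secretome libraries stood above those of the proteins and of EV. Their part in the differences between treatments was not tested. The microglial sums given above overlapped between IC and each treatment.

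Parp9 was at 2.81, 2.70 and 1.32 TPM in the IC libraries and at 6.47, 6.80 and 5.65 TPM with EV. It was at 3.28, 5.73 and 3.29 TPM with the proteins and at 4.01, 3.66 and 3.72 TPM with the secretome. All treated libraries lay above all IC libraries, and the EV libraries also lay above all secretome libraries. The means were 2.27 ± 0.831 TPM (SD, n = 3) in IC, 6.31 ± 0.592 with EV, 4.10 ± 1.41 with the proteins and 3.80 ± 0.188 with the secretome. The log2(TPM + 1) difference from IC was 1.19 (SE 0.24) for EV, and between 0.99 and 1.29 without any single library. It was 0.67 (SE 0.27) for the proteins, with a range of 0.47 to 0.80 without single libraries, and 0.60 (SE 0.23) for the secretome, with a range of 0.41 to 0.70. Dtx3l, which encodes the partner of PARP9 and is its neighbour in the GRCr8 annotation, was at 1.5, 0.869 and 1.5 TPM in IC, at 2.45, 4.03 and 4.35 TPM with EV, at 1.96, 3.43 and 2.86 TPM with the proteins and at 2.72, 2.58 and 2.03 TPM with the secretome. Its treated libraries, too, all lay above the IC libraries.

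Ifit3 was listed at 0 in all IC and all EV libraries. It was at 0, 0.108 and 0 TPM with the proteins and at 0.128, 0 and 0.152 TPM with the secretome. These levels are near 0 in every group, and Ifit3 did not pass the filter in any comparison.

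Stat2, the subunit that is particular to ISGF3, was at 9.78, 9.43 and 7.51 TPM in the IC libraries and at 9.66, 8.72 and 7.59 TPM with EV. It was at 7.17, 6.91 and 5.82 TPM with the proteins and at 6.84, 7.44 and 6.45 TPM with the secretome. The protein and secretome libraries all lay below those of IC and of EV, though the nearest libraries were close, at 7.44 and 7.51 TPM. The means were 8.91 ± 1.22, 8.65 ± 1.04, 6.63 ± 0.721 and 6.91 ± 0.501 TPM (SD, n = 3) in IC, EV, protein and secretome libraries. The log2(TPM + 1) differences from IC were -0.04 (SE 0.18) for EV, -0.35 (SE 0.16) for the proteins and -0.30 (SE 0.16) for the secretome. The 9 neuronal markers summed to 3854 to 4007 TPM in IC, 3669 to 4031 with EV, 3236 to 3785 with the proteins and 3132 to 3919 with the secretome, and every protein library was below every IC library. Their part in the lower levels of Stat2, and in those of Irf1, Oas1k and Cmpk2 given below, was not tested.

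Irf9, the subunit of ISGF3 that recognises the ISRE, was at 6.56, 6.04 and 4.62 TPM in the IC libraries and at 7.49, 10.1 and 6.79 TPM with EV. It was at 3.96, 5.33 and 3.49 TPM with the proteins and at 7.18, 6.22 and 4.98 TPM with the secretome. The EV libraries lay above those of IC and of the proteins, and the secretome libraries overlapped all other groups. The means were 5.74 ± 1.0 TPM (SD, n = 3) in IC, 8.14 ± 1.76 with EV, 4.26 ± 0.956 with the proteins and 6.13 ± 1.10 with the secretome. Against IC the log2(TPM + 1) differences were 0.43 (SE 0.20) for EV, -0.34 (SE 0.20) for the proteins and 0.10 (SE 0.18) for the secretome.

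Irf1 was at 2.30, 3.84 and 2.09 TPM in the IC libraries and at 1.12, 3.39 and 3.66 TPM with EV. It was at 0.846, 1.92 and 1.89 TPM with the proteins and at 3.43, 3.32 and 1.82 TPM with the secretome. Only the protein libraries stood apart from IC, all below it. The log2(TPM + 1) differences were -0.07 (SE 0.36), -0.53 (SE 0.29) and 0.05 (SE 0.26) for EV, proteins and secretome. Irf7 was above 0 in only 1 IC library, at 0.136 TPM, and in 2 EV libraries, at 0.129 and 0.160 TPM, and was listed at 0 in all libraries of the other groups.

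B2m had the highest level of the 9 genes, at 110, 149 and 71.6 TPM in the IC libraries and at 128, 131 and 73.4 TPM with EV. With the proteins it was at 132, 142 and 117 TPM and with the secretome at 129, 148 and 113 TPM. All groups overlapped, and the IC and EV groups each had 1 library near 70 TPM, the one numbered 3 in both. The log2(TPM + 1) differences from IC were 0.01 (SE 0.30), 0.33 (SE 0.23) and 0.31 (SE 0.23) for EV, proteins and secretome.

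In TPM the order of the 7 genes other than Irf7 and Ifit3 changed with treatment. In IC the mean levels ranked in the order B2m, Stat2, Irf9, Irf1, Ifitm3, Parp9 and Gbp2, and in EV in the order B2m, Ifitm3, Stat2, Irf9, Gbp2, Parp9 and Irf1. Irf1, Ifitm3 and Parp9 had overlapping levels in IC, as had Ifitm3, Stat2, Irf9 and Gbp2 in EV. Parp9 in EV overlapped Gbp2, and its highest library, at 6.80 TPM, reached the lowest of Irf9, at 6.79 TPM.

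A gene counted as called when the unadjusted p of limma was under 0.05 and the fold change over 1.5. Since the genes were selected on these libraries, such a call is no test of them, and it is given only beside the share of all genes that met the same limits. Of the 7 genes that passed the filter, Ifitm3, Gbp2 and Parp9, or 3, met them in EV against IC, where 2.15% of all genes tested were called and 1.56% were called higher. The same 3 met them with the proteins, where 10.0% of all genes were called and 6.64% higher, and with the secretome, where 8.09% were called and 5.55% higher. For Gbp2 this followed in part from the filter, as said above. Parp9 no longer met them for the proteins without protein library 2 or 3 or IC library 3, or for the secretome without IC library 3 or any secretome library, and for neither with a pseudocount of 5 TPM or without rescaling. Libraries did not overlap with IC for 4 of the 7 genes with EV, all higher, against 3.24% of all genes. They did not overlap for 3 higher and 2 lower with the proteins, against 10.7% and 9.87%, and for 3 higher and 1 lower with the secretome, against 11.4% and 8.87%. Nothing is read from these counts, and the 3 comparisons share the IC libraries.

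**Figure D2:**
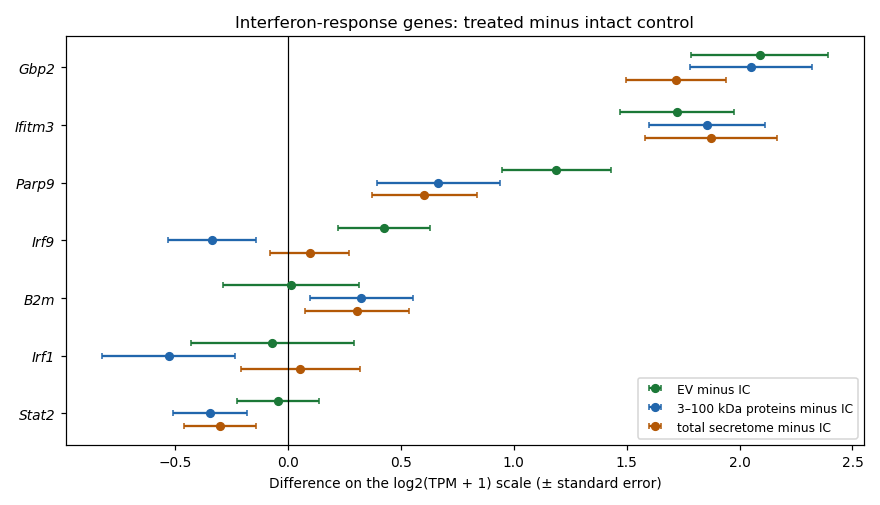
Difference from IC on the log2(TPM + 1) scale (horizontal axis) for the 7 genes that passed the filter, with 1 point per treatment and bars of 1 standard error. The points of Gbp2 and Ifitm3 lie between 1.72 and 2.09, those of Parp9 between 0.60 and 1.19, and those of the other 4 genes between -0.53 and 0.43.

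The treatments were then set against each other. For Ifitm3 and Gbp2 the libraries of the treatments overlapped. The log2(TPM + 1) difference of EV from the proteins was -0.13 (SE 0.17) for Ifitm3 and 0.04 (SE 0.34) for Gbp2. That of EV from the secretome was -0.14 (SE 0.23) and 0.38 (SE 0.30), the latter between 0.07 and 0.56 without single libraries. Given these errors and the unequal doses, the values do not show that the treatments act alike. Irf9 was higher in EV than with the proteins by 0.77 (SE 0.20) on the log2(TPM + 1) scale. Parp9 was higher in EV than with the secretome by 0.59 (SE 0.18), with differences of 0.56 to 0.65 without single libraries. Stat2 was higher in every EV library than in every protein and secretome library, by 0.31 (SE 0.17) and 0.27 (SE 0.18) on the log2(TPM + 1) scale. Libraries did not overlap for 2 of the 7 genes in EV against proteins (Stat2 and Irf9), against 7.40% of all genes higher in EV, and for 2 in EV against secretome (Stat2 and Parp9), against 5.85%. The limits on p and fold change were met by Irf9 alone in EV against proteins, where 1.58% of all genes were called higher in EV, and by Parp9 alone in EV against secretome, where 1.43% were. None of the 7 met them in secretome against proteins, where 1.25% of all genes did and the differences of the 7 ran from -0.33 to 0.59. Nothing is read from these counts either, as these libraries also belong to those the genes were selected on. The Parp9 call was lost with a pseudocount of 5 TPM and without EV library 1 or 2 or secretome library 1 or 2, and that of Irf9 with the pseudocount of 5 TPM.

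For the rest of the pathway, a list of 174 further genes was used, of which 160 are in the files. Of these, 17 were listed at 0 in all libraries, 65 were under 1 TPM in every library and 36 had a mean of at least 5 TPM. All 7 interferon genes of the list that are in the files (Ifna2, Ifna4, Ifnb1, Ifng, Ifnk, Ifne and Ifnl3) were listed at 0 in all 12 libraries. Their receptors were present, with Ifnar1 at 41.8 to 67.5 TPM and Ifngr1 at 24.0 to 35.7 TPM, as was the kinase gene Jak1 at 37.9 to 93.5 TPM. Of the 58 antiviral effectors in the files, 25 were under 1 TPM in every library and 11 had a mean of at least 5 TPM. Ifit1 was listed at 0 throughout, Mx1 reached at most 0.183 TPM, Rsad2 at most 0.255 TPM and Isg15 at most 0.525 TPM. Mx2, in contrast, was at 4.55 to 17.5 TPM with overlapping groups, and the highest of these effectors were Adar, at 41.4 to 53.2 TPM, and Shisa5, at 29.1 to 48.5 TPM. Ifit1, Mx1, Rsad2, Isg15 and Mx2, like Ifitm2 above, were chosen after their values were seen.

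**Figure D3:**
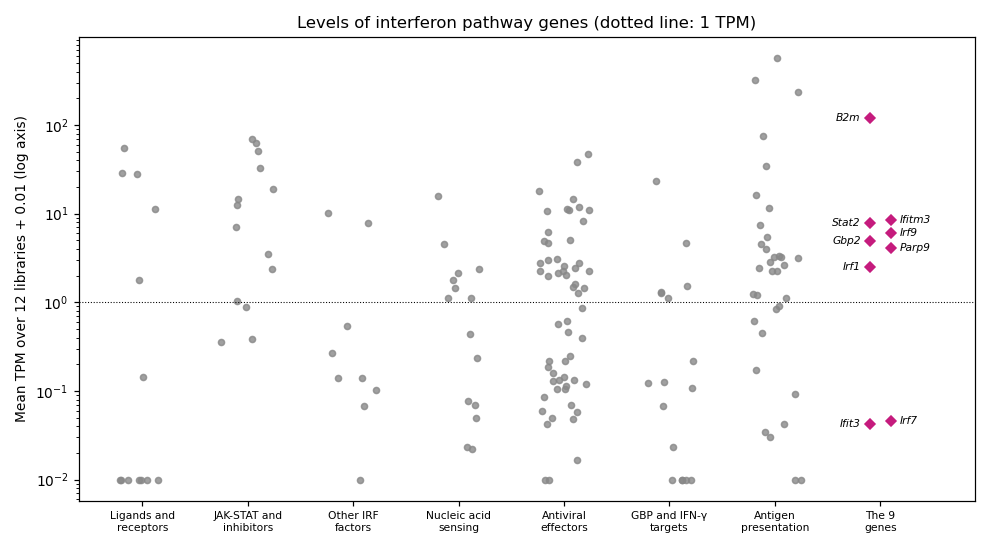
Mean TPM over the 12 libraries, with 0.01 added, on a log axis, for the 160 pathway genes by sub-list (grey dots) and for the 9 genes (diamonds, named), with a dotted line at 1 TPM. The bottom row of dots holds the 17 genes listed at 0 throughout, and Irf7 and Ifit3 lie far below the other 7 named genes.

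The pathway list was drawn up with earlier results of these data known. Its counts, medians and p-values, here and below, are therefore a description and no independent test. Of 85 pathway genes tested in EV against IC, 9 were called higher and 1 lower (1.56% and 0.588% of all genes), with a median log2(TPM + 1) difference of 0.17 against -0.01 over all genes tested. In JAK-STAT signalling, Stat3 and Socs3, the gene of its feedback inhibitor, were called higher under all 3 treatments. Stat3 was at 28.9, 29.1 and 25.7 TPM in IC, at 67.1, 83.9 and 76.9 TPM with EV, at 60.7, 76.2 and 74.9 TPM with the proteins and at 67.1, 81.0 and 75.3 TPM with the secretome. The lowest treated library, at 60.7 TPM, lay far above the highest IC library, at 29.1 TPM. The log2(TPM + 1) differences in that order were 1.40 (SE 0.13, adjusted p 0.0154), 1.33 (SE 0.15, adjusted p 0.0053) and 1.40 (SE 0.14, adjusted p 0.0048, limma). Stat3 was the only pathway gene with an FDR under 0.05 in EV against IC, where 0.141% of all genes had one, and there the FDR call was lost without any single library except IC library 2, with adjusted p between 0.0426 and 0.225 over the 6 fits. The study's supplement mentions a day covariate for the IC and EV libraries, but the sources used here do not tie libraries to days. With the replicate number as a block, which may or may not mark the day, the adjusted p of Stat3 in EV against IC was 0.109 (limma). Socs3 was at 1.45, 1.18 and 0.699 TPM in the IC libraries and at 6.72, 5.40 and 6.10 TPM with EV, and at 1.62 to 3.58 TPM with the proteins and 3.42 to 4.52 TPM with the secretome. Its log2(TPM + 1) difference from IC was 1.76 (SE 0.23, adjusted p 0.0603, limma) with EV. In EV it was also above the proteins, by 0.98 (SE 0.28, adjusted p 0.284, limma). With the replicate number as a block these adjusted p-values of Socs3 were 0.172 and 0.0994 (limma).

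The other genes called higher with EV were the transcription factor gene Irf2, the ubiquitin ligase gene Trim25, Ifitm10, Dtx3l, the adhesion molecule gene Icam1, the inflammatory caspase gene Casp4 and the immunoproteasome subunit gene Psmb8. The gene called lower was the DNA sensor gene Aim2, at 5.04, 3.41 and 2.43 TPM in IC and 1.03, 1.92 and 2.09 TPM with EV (-0.78, SE 0.28, adjusted p 1, limma). The calls other than Stat3 had an adjusted p of 0.0603 or more. Trim25 was under 1 TPM in every IC library, and Icam1 likewise, so both passed the filter only through treated libraries and a difference was bound to appear. Without these 2, the counts were 7 higher and 1 lower. The call of Aim2 was lost with the replicate number as a block. Without single libraries, 4 of the 10 calls (Stat3, Socs3, Ifitm10 and Dtx3l) held in all 6 fits. Trim25 and Icam1 were not tested without an EV library, and the other 4 were lost without at least 1 library: Irf2 without any but EV 1, Aim2 without EV 1, IC 1 or IC 2, Casp4 without EV 1, EV 2 or IC 3, and Psmb8 without EV 1, EV 2, IC 1 or IC 3.

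Ifitm10, a relative of Ifitm3, was at 5.76, 6.56 and 5.54 TPM in the IC libraries and at 9.68, 18.6 and 12.4 TPM with EV, at 9.78, 11.9 and 9.47 TPM with the proteins and at 10.9, 15.7 and 13.8 TPM with the secretome. All treated libraries lay above those of IC. The differences were 1.02 (SE 0.24, adjusted p 0.475), 0.73 (SE 0.17, adjusted p 0.0694) and 1.06 (SE 0.20, adjusted p 0.0490, limma).

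With the 3–100 kDa proteins, 7 of 85 pathway genes were called higher and 4 lower (6.64% and 3.39% of all genes), with a median of 0.12 against -0.02 over all genes. The 7 were Stat3, Socs3, Trim25, Ifitm10, Dtx3l, Icam1 and the class I gene RT1-S3, and the 4 were Oas1k, Cmpk2, the adhesion molecule gene Vcam1 and the class I gene RT1-CE2. With the replicate number as a block, Socs3 was lost and RT1-CE4 gained, which again made 11. With the secretome, 8 of 83 were called higher (Stat3, Socs3, Irf2, Trim25, Ifitm10, Dtx3l, Casp4 and RT1-S3) and 3 lower (Aim2, Oas1k and Cmpk2), where 5.55% and 2.54% of all genes were called, with a median of 0.16 against -0.01. Trim25 and RT1-S3 in both comparisons, and Icam1 with the proteins, were under 1 TPM in every IC library and passed the filter only through the treated libraries, and RT1-CE2 was under 1 TPM in every protein library and passed only through IC. Without these genes the counts were 4 higher and 3 lower for the proteins and 6 higher and 3 lower for the secretome. By FDR, Stat3 alone was called for the proteins, where 3.31% of all genes were, and Stat3, Socs3 (adjusted p 0.0393) and Ifitm10 for the secretome, where 1.97% were (limma). Secretome and IC libraries that share a number may be paired, which was not settled. With the replicate number as a block the adjusted p was 0.0071 for Stat3, 0.0643 for Socs3 and 0.0395 for Ifitm10 (limma), while RT1-CE4 and Psmb8 were gained among the calls. Without single libraries, 4 of the 11 protein calls and 6 of the 11 secretome calls held in all 6 fits. Of the protein calls, Socs3 was lost without protein library 2 or 3 or IC library 3, Dtx3l without protein library 2 or 3 or IC library 2, Icam1 without IC library 3 and RT1-CE2 without protein library 1 or 3. Of the secretome calls, Irf2 was lost without secretome library 2 or 3 or IC library 2, and Dtx3l without secretome library 1 or 2 or IC library 2. Trim25 and RT1-S3 were not tested without a treated library. The FDR call of Socs3 for the secretome was lost without any library but IC 2, and that of Ifitm10 without any but IC 2 and secretome 1, with adjusted p of up to 0.214 and 0.262 (limma). By FDR, Stat3 lost its call for the secretome only without secretome library 3 (adjusted p 0.0529), and for the proteins it held in all 6. The RT1 genes are close copies of one another, so their separate levels are uncertain.

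**Figure D4:**
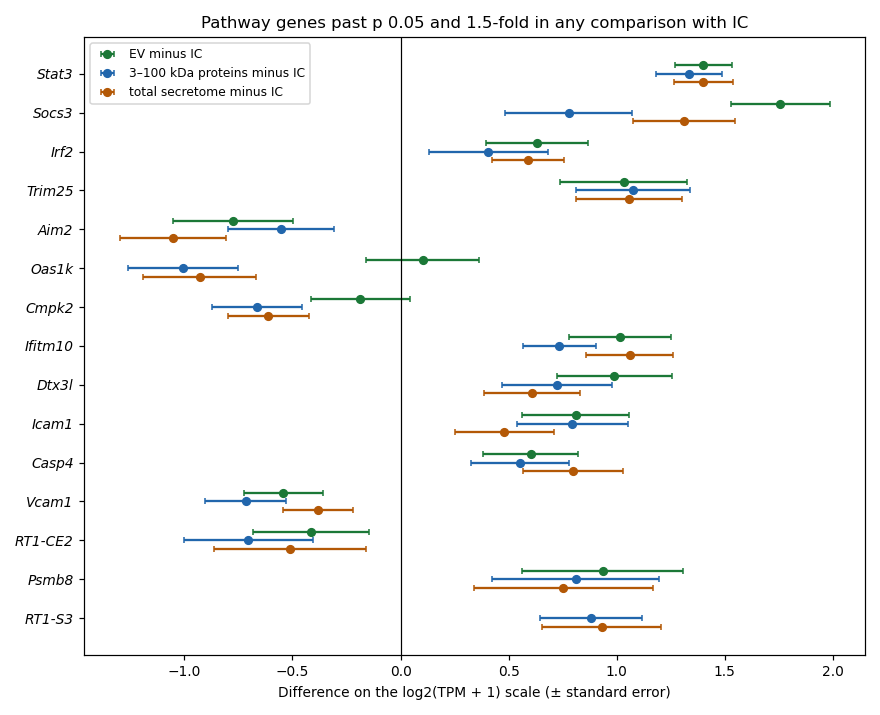
Difference from IC on the log2(TPM + 1) scale (horizontal axis) for the 15 pathway genes called in at least 1 comparison with IC, with 1 point per treatment and bars of 1 standard error, and no EV point for RT1-S3, which failed the filter there. Stat3 lies between 1.33 and 1.40 for all treatments, while Oas1k lies at 0.10 for EV and at -1.01 and -0.93 for proteins and secretome.

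Oas1k, of the oligoadenylate synthetase family that senses double-stranded RNA, and Cmpk2, a mitochondrial nucleotide kinase gene, were lower in every protein and secretome library than in any IC library, as Stat2 was. They were chosen for display after their values were seen. Oas1k was at 2.26, 4.03 and 2.33 TPM in IC, at 3.55, 3.44 and 2.39 TPM with EV, at 1.08, 0.672 and 0.865 TPM with the proteins and at 1.42, 0.744 and 0.845 TPM with the secretome. The libraries of proteins and secretome all lay below those of IC and EV, with differences from IC of -1.01 (SE 0.26, adjusted p 0.0911) and -0.93 (SE 0.26, adjusted p 0.134, limma). Oas1k was higher in EV than with the proteins by 1.12 (SE 0.22, adjusted p 0.123) and than with the secretome by 1.04 (SE 0.24, adjusted p 0.288, limma), and all 4 calls held without any single library. With the replicate number as a block the adjusted p of Oas1k was 0.0574 for EV against proteins and 0.238 for EV against secretome (limma). Cmpk2 was at 5.68, 6.35 and 6.49 TPM in IC, at 5.13, 4.34 and 6.73 TPM with EV, at 3.65, 2.90 and 3.81 TPM with the proteins and at 3.52, 3.52 and 3.87 TPM with the secretome. Its differences from IC were -0.66 (SE 0.21, adjusted p 0.153) for the proteins and -0.61 (SE 0.19, adjusted p 0.166, limma) for the secretome. The first was lost without protein library 2 or IC library 3, and the second without secretome library 1 or IC library 3. The copies of Oas1 in the rat are alike, which leaves the level of Oas1k uncertain.

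**Figure D5:**
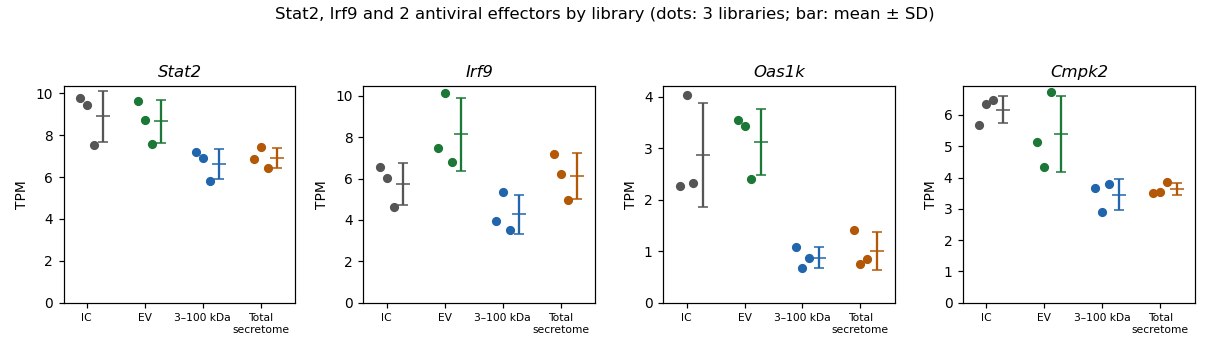
Level in TPM (vertical axis, from 0) of Stat2, Irf9, Oas1k and Cmpk2 in the 12 libraries, with 1 dot per library by group and the mean ± SD of 3 libraries. The protein and secretome libraries of Stat2, Oas1k and Cmpk2 lie below those of IC and EV, while Irf9 is highest with EV.

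Between the treatments few other pathway genes were called. In EV against the proteins these were Socs3, Oas1k and the adaptor gene Myd88, 3 of 85 against 5.14% of all genes, all higher in EV, and with the replicate number as a block Igtp (higher) and RT1-S3 (lower) were added, which made 5, where 6.57% of all genes were called. In EV against the secretome they were Oas1k and Socs1, 2 of 85 against 3.98% of all genes, both higher in EV, and Socs1 was lost without EV library 1 or secretome library 2 or 3. In secretome against proteins it was RT1-CE5 alone, 1 of 80 against 1.25% of all genes, higher in the secretome and lost without secretome library 3 or protein library 2. No pathway gene had an FDR under 0.05 in these 3 comparisons, where 0.533%, 0.188% and 0.0157% of all genes had one. With the replicate number as a block, 341 of 12751, 20 of 12754 and 5 of 12723 genes had one, again with no pathway gene. At an unadjusted p under 0.05 with the fold change over 1.5 the counts were those given at the start of this paragraph. Myd88, Igtp, Socs1, RT1-CE4 and RT1-CE5 are named because the counts are small.

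Over the 12 libraries, the genes whose pattern was most like the mean of the 7 genes, among 10246 compared, were Cebpd (Pearson r 0.89), March3 (0.84), Gfap (0.84), Ripk1 (0.83) and Pnp (0.81). The libraries fall into 4 groups, so these r values describe in large part the order of the groups. Cebpd was at 0.502 to 3.81 TPM in IC, 8.03 to 15.8 TPM with EV, 2.10 to 3.30 TPM with the proteins and 5.48 to 7.63 TPM with the secretome, and Gfap was at 85.1 to 361 TPM in IC and 242 to 635 TPM in the treated libraries. The genes most like Irf1 were Dhx32 (0.86), AABR07002969.1 (0.81) and RGD1563962 (0.81).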

How the data were processed

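Processing steps follow the labels and the study's methods. Reads were checked with FastQC, trimmed with Trimmomatic and Cutadapt, quantified with Salmon against rat transcripts of Ensembl (Rnor_6.0 in the processing notes) with the genome as decoy, and summarised per gene with tximport. The labels name a strand-specific DNBSEQ library and the methods another kit and sequencer. The deposited values are taken as the TPM the authors obtained, since they are fractional and add up to 1000000 per library. Their unit is not named in the sources used here.

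Rows of one name were summed. Each pair of groups was fitted separately: TPM was rescaled by median-of-ratios factors, genes with at least 1 deposited TPM in at least 3 of 6 libraries were kept, and log2(TPM + 1) was tested with limma 3.58.1 (eBayes with trend, R 4.3.3) and adjusted by Benjamini-Hochberg over all genes tested, 12723 to 12792 per pair. All p-values measure the spread between these libraries, which may be technical. Overlap was judged on deposited TPM. The script was tested on simulated data.

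The genes and lists were chosen with earlier results of these data known. Of the pathway list, genes with an FDR under 0.05, the 2 called genes of lowest p per sub-list and comparison with IC, and the 2 of highest level per sub-list were to be named; others are marked as chosen after their values were seen. Genes like the set were ranked by Pearson r among genes with a mean of at least 5 TPM.

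As a check of pairing, the deviations from the group mean of libraries that share a number correlated across genes at -0.05, -0.16 and 0.47 for EV and IC and at 0.02, -0.21 and 0.22 for proteins and IC. These values were of mixed sign and were not read as pairs. The study's supplement removed a day covariate from a plot of IC and EV, but the sources used here do not tie libraries to days, so it was not fitted. The same deviations correlated at 0.24, 0.14 and 0.16 for secretome and IC, 0.55, 0.25 and 0.27 for EV and proteins, 0.24, 0.18 and 0.18 for EV and secretome, and 0.34, 0.17 and 0.20 for secretome and proteins. These were taken as possible pairs only, from the data and not from the labels, as libraries of unlike number were not compared. All main differences, errors, p-values and shares come from fits without pairs. Fits with the replicate number as a block were an alternative.

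Alternatives were other pseudocounts, filters and rescalings, 1 fit of all 12 libraries, no trend, the replicate block and leaving out each library. Some items are not reported here.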

Additional observations from a re-analysis of the deposited data

How the results depend on the processing

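The counts of the set describe genes that were selected on these libraries, and Gbp2 was not tested without a treated library, so that they do not speak to stability. Over the 6 comparisons in the order EV, proteins and secretome against IC, EV against proteins, EV against secretome, and secretome against proteins, the main counts were 3, 3, 3, 1, 1 and 0 for the 7 genes and 10, 11, 11, 3, 2 and 1 for the pathway list. A pseudocount of 5 TPM, which shrinks differences of low genes by construction, left 3, 2, 3, 0, 0 and 0 pathway genes and 0 of the set for EV against either other treatment. A mean of at least 5 TPM, which removes low genes, left 1 of the set in each comparison with IC and 3, 3, 3, 0, 0 and 0 pathway genes. A pseudocount of 0.1 gave 2 of the set for EV against proteins, 1 fit of all libraries gave 4 pathway genes for EV against secretome and 0 for secretome against proteins, and no trend gave 4 pathway genes for EV against secretome and 1 of the set for secretome against proteins. No filter gave 2 pathway genes for secretome against proteins. The cause of these was not tested. Under the replicate block the pathway count was 5 for EV against proteins, and in the other comparisons it stayed within 1.5 times. The genes called changed in part, with Aim2 lost for EV against IC and Socs3 lost for proteins against IC. The FDR call of Stat3 was lost for EV against IC (adjusted p 0.109, limma), where libraries that share a number were not read as pairs. Without single libraries, the counts for the set ran from 2 to 3, 1 to 3, 1 to 3, 1 to 2, 0 to 1 and 0 to 1, and for the pathway list from 7 to 10, 6 to 14, 7 to 18, 3 to 6, 1 to 4 and 0 to 2. The 18 came without IC library 2 and the 6 for proteins without protein library 2. The depth is unknown, so no detection limit can be given for Irf7 and Ifit3.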
